A study of Mus musculus with 2 samples.

Results

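The heat shock chaperones of the cytosol and mitochondria were examined as 36 genes of a table of 34745, chosen by symbol: the Hsp70 and Hsp90 proteins, their J-protein and other co-chaperones, the regulator Hsf1, the mitochondrial chaperones and the 8 subunits of the chaperonin TRiC. Each symbol matched 1 gene identifier, and 33 of the 36 reached a mean of 1 FPKM over the libraries. The cells were primary bone marrow-derived macrophages of C57BL/6 mice. They were transfected with an ASO, an antisense oligonucleotide that pairs with a chosen RNA, and treated with lipopolysaccharide (LPS), a bacterial wall component that activates macrophages. One library came from cells given AclyE14-ASO, which is named for the gene of ATP-citrate lyase, and the other from cells given Control-ASO. Both carried the LPS treatment, and no untreated or untransfected library was analysed here. The sources used here give neither the number of mice or cultures behind each library nor the dose and duration of LPS.

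Chaperones bind unfolded or partly folded proteins and release them through cycles of ATP binding. Hsp70 takes its clients from J proteins, hands some of them to Hsp90 through the adaptor encoded by Stip1, and is reset by nucleotide exchange factors such as the BAG and Hsp110 proteins. TRiC is a ring-shaped chaperonin that folds actin and tubulin, and Hspd1 with its lid Hspe1 is the related chamber of mitochondria. Under heat or protein damage the transcription factor HSF1 binds heat shock elements, arrays of inverted GAA units, in front of the inducible chaperone genes. In macrophages Hsp90 is also known to stabilise kinases of the LPS response.

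Heat shock elements were looked for because they mark the genes that HSF1 is known to drive, and promoter sequences from RefSeq (GRCm38.p6, 250 bases before to 50 bases after each start) were found for 29 of the 36 members. The motif of 3 units, GAANNTTCNNGAA or TTCNNGAANNTTC, each the reverse complement of the other so that both strands were read, occurred in 5 of the 29 members, or 17.2%, and in 0.662% of the 27025 genes with a window. The motif of 2 units, GAANNTTC or TTCNNGAA, which lies inside the longer one, occurred in 15 of the 29, or 51.7%, and in 17.0% of all genes. No window was found for Hsp90aa1, Hspa8, Hsp90ab1, Hsf1, Dnajc5, Hspa9 and Cct4. These matches describe the letters of the windows and are not measured binding. Only exact copies inside the windows were counted, so an element with other letters or further from the start would be missed. The 150 bases before the start of Hspa1a, Hspa1b and Hspb1 are shown because these were the members with the highest count ratios, with the motif of 2 units in capitals.
Hspa1a (chr17:34972157-34972306, minus strand): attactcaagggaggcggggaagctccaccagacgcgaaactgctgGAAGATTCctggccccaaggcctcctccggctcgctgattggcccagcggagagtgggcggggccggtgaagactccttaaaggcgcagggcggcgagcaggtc
Hspa1b (chr17:34959239-34959388, minus strand): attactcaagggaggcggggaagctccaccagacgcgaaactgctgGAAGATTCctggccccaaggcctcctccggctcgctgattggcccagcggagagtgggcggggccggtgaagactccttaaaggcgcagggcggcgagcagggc
Hspb1 (chr5:135887769-135887918, plus strand): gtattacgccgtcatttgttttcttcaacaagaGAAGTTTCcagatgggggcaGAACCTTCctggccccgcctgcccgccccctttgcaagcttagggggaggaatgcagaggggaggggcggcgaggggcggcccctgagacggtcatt

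The 5 members with the motif of 3 units are shown by 30 bases around it, with the motif and any overlapping copy in capitals; those of Hsph1 and Chordc1 lie after and across the start.
Hspd1 (chr1:55088053-55088082, minus strand): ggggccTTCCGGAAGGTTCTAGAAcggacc
Hspe1 (chr1:55088053-55088082, plus strand): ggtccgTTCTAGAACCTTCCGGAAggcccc
Hsph1 (chr5:149636280-149636309, minus strand): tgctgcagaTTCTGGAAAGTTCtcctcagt
Dnajb6 (chr5:29735843-29735872, plus strand): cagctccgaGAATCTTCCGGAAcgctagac
Chordc1 (chr9:18292259-18292288, plus strand): accgGAACGTTCGGGAAAATTCCTGAAgca
Hspd1 and Hspe1 lie on opposite strands. The RefSeq start of Hspe1 is at 55088148 and those of Hspd1 at 55087932 and 55088243, so the genes are separated by 215 bases from the one Hspd1 start and overlap from the other, and the stretch shown for them is the same DNA read on either strand.

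The AclyE14-ASO library held 12751076 gene counts and the Control-ASO library 14215397. Acly itself was at 768 counts in the AclyE14-ASO library and 1549 in the Control-ASO library, a ratio of 0.553 per library total (0.506 to 0.603). The intervals given with count ratios are exact (Clopper-Pearson) 95% intervals that cover counting error only. With 1 library per group no difference has a replicate check, and culture-to-culture variation cannot be told apart from the treatment. The median of 8658 expressed genes had a log2 ratio of -0.13 on FPKM + 1 and a count ratio of 0.896, so member values are read beside those. All 15 macrophage markers were measured, with Lyz2 at 12276 FPKM with AclyE14-ASO and 9798 FPKM with Control-ASO. They went both ways: 4 were higher by 1.5-fold on FPKM + 1 and 3 were lower, against 7.03% and 8.48% of expressed genes. Their count ratios ran from 0.525 for Aif1 to 4.74 for Itgam. None of 10 lymphocyte markers reached a mean of 1 FPKM. Of 9 neutrophil markers 2 were measured: S100a8, which activated macrophages also express, was higher, at 41.4 FPKM with AclyE14-ASO and 19.7 FPKM with Control-ASO, and Csf3r was at 6.58 FPKM with AclyE14-ASO and 4.17 FPKM with Control-ASO, while S100a9, Ly6g, Elane and Camp were at 0 counts in both libraries. S100a9 is usually expressed together with S100a8, which had 520 counts with AclyE14-ASO and 276 counts with Control-ASO, so its 0 may not mean absence, and the cause was not tested. Fibroblast and stromal markers differed between the libraries: all 14 measured of 18 listed were higher in the AclyE14-ASO library, and their summed level, over all 18, was 235 FPKM there and 52.9 FPKM in the Control-ASO library. Among them Postn had 5 counts with AclyE14-ASO and 0 counts with Control-ASO. Only 7 of the 18 reached 1 FPKM in the Control-ASO library. In these bulk samples a different share of cells and a different amount of RNA per cell cannot be told apart.

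Most members lay close to the median gene. Of the 33 measured, 1 was higher by 1.5-fold or more on FPKM + 1 (3.03%) and 2 were lower (6.06%), against 7.03% and 8.48% of expressed genes. The higher member was the small heat shock protein gene Hspb1, and the lower ones, neither of which stayed past 1.5-fold under TMM, median-of-ratios or centred scaling, were the J-protein gene Dnajb1 and the mitochondrial Hsp70 gene Hspa9. By counts per library total the same 3 members passed 1.5-fold, against 9.40% of expressed genes higher and 14.4% lower. In either direction 9.09% of the members were called, against 15.5% of expressed genes. The median log2 ratio of the members was -0.20. A log2 ratio below 0 was found for 29 of 33 members (87.9%), against 64.9% of expressed genes, and 22 of the 33 lay below the median expressed gene. The counting interval lay below a ratio of 1 for 25 members (75.8%) and above 1 for 4 (12.1%), against 44.2% and 21.7% of expressed genes. That comparison depends on abundance, because 28 of the members had a mean of at least 5 FPKM and higher counts narrow the interval. Summed over all 36, the members took 0.431% of the AclyE14-ASO counts and 0.499% of the Control-ASO counts, a ratio of 0.864 (0.854 to 0.874). Without Hspa9, which alone had 5958 counts with AclyE14-ASO and 10299 counts with Control-ASO, the ratio of the sum was 0.901 (0.890 to 0.912).

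**Figure D1:**
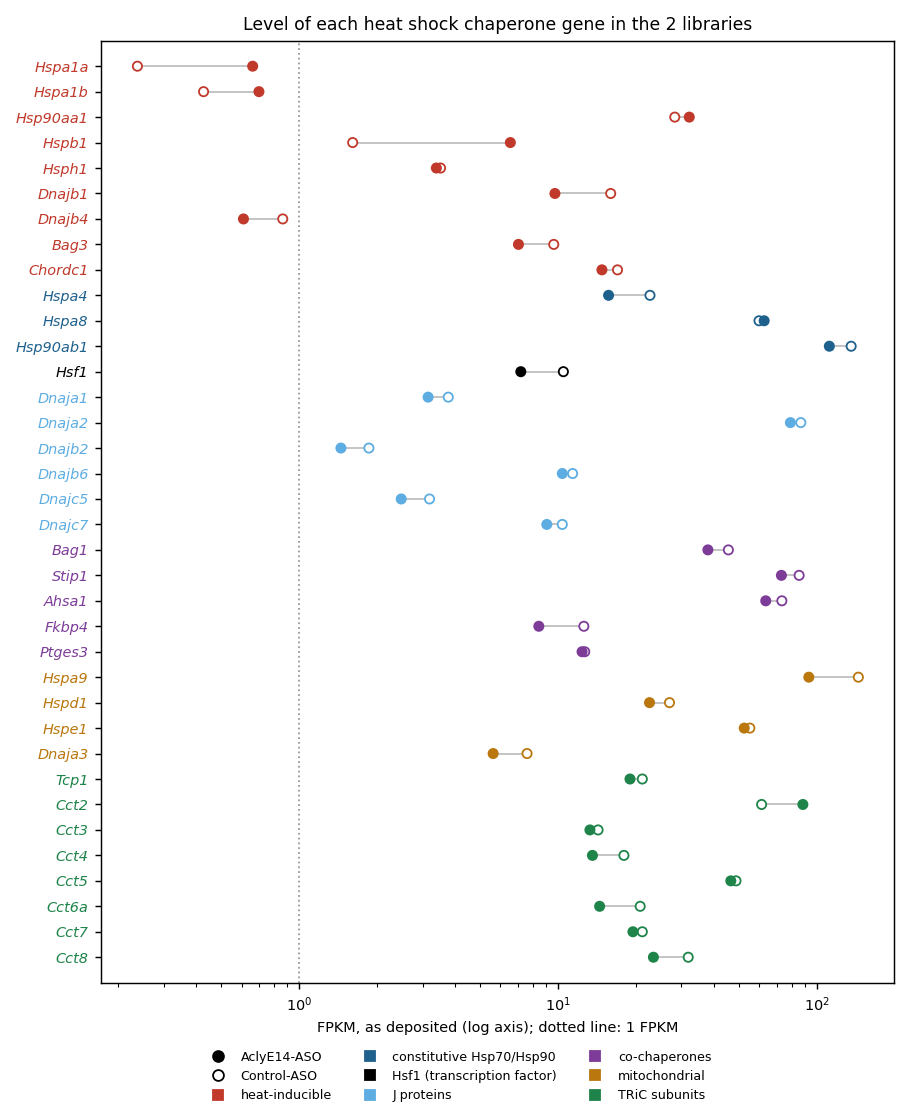
Level of each of the 36 chaperone genes in deposited FPKM (log axis), with filled circles for the AclyE14-ASO library, open circles for the Control-ASO library and colours for the role groups. Hspb1 stands out with its filled circle at 6.55 FPKM and its open circle at 1.61 FPKM, and Hspa1a, Hspa1b and Dnajb4 lie below 1 FPKM in both libraries.

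The heat-inducible chaperones were spread on both sides of the median gene. Of 9 members 6 were measured, and 1 was higher, 1 lower and 4 between, with a median log2 ratio of -0.12, which became 0.01 with centring on the median gene. Hspb1, which encodes the small heat shock protein HSP25 that holds unfolding proteins and binds actin, was at 6.55 FPKM in the AclyE14-ASO library and 1.61 FPKM in the Control-ASO library. These levels rested on 153 counts with AclyE14-ASO and 42 counts with Control-ASO, a ratio of 4.06 (2.87 to 5.86) and a log2 ratio of 1.53. A processed pseudogene of this gene, Hsp25-ps1, was higher as well, with 55 counts with AclyE14-ASO and 19 counts with Control-ASO, and the summed counts of both gave a ratio of 3.80 (2.85 to 5.14). Hspb1 is also abundant in fibroblasts and muscle cells, and the stromal markers that were higher in the same library included Tagln at 71.9 FPKM with AclyE14-ASO and 12.6 FPKM with Control-ASO. The part of such cells in the level of Hspb1 was not tested.

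The classical stress-inducible Hsp70 genes were at a low level in both libraries. Hspa1a had 25 counts in the AclyE14-ASO library and 10 in the Control-ASO library, a ratio of 2.79 (1.29 to 6.50). Hspa1b had 25 counts with AclyE14-ASO and 17 counts with Control-ASO, and its interval of 0.851 to 3.24 included no difference. The coding sequences of these neighbouring genes are identical at 1889 of 1923 bases aligned from the start codon, and the 250 bases before their starts at 247, so reads can be split between them. Summed, they had 50 counts in the AclyE14-ASO library and 27 in the Control-ASO library, a ratio of 2.06 (1.27 to 3.43). Each of the paired genes was under 1 FPKM in both libraries.

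Dnajb1, the J protein Hsp40 that loads clients onto inducible Hsp70, ran the other way. It was at 9.74 FPKM from 281 counts in the AclyE14-ASO library and 16.0 FPKM from 516 counts in the Control-ASO library. The ratio was 0.607, with an interval of 0.523 to 0.703 that spans the 1.5-fold limit of 0.667, and the log2 ratio was -0.67. Bag3, a nucleotide exchange factor of Hsp70 in selective autophagy, was at 7.04 FPKM with AclyE14-ASO and 9.64 FPKM with Control-ASO, a ratio of 0.731 (0.616 to 0.865). Dnajb4, another J protein, had 93 counts with AclyE14-ASO and 147 counts with Control-ASO, and its mean was below 1 FPKM. Hsph1 (Hsp110), Chordc1, an Hsp90-binding protein, and Hsp90aa1, the inducible Hsp90, had log2 ratios of -0.04, -0.19 and 0.18. Hsp90aa1 was the most abundant inducible member, at 32.2 FPKM in the AclyE14-ASO library and 28.3 FPKM in the Control-ASO library, a ratio of 1.14 (1.08 to 1.20). The 5 members with the 3-unit heat shock element shown above all lay within 1.5-fold, with log2 ratios from -0.25 for Hspd1 to -0.04 for Hsph1. So did most expressed genes, of which 15.5% were called in either direction. Both promoter windows of Dnajb1 lacked exact copies of either motif, which does not show that the gene lacks a heat shock element.

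Hsf1, the transcription factor of the heat shock response, was at 7.19 FPKM in the AclyE14-ASO library and 10.5 FPKM in the Control-ASO library. It had 185 counts with AclyE14-ASO and 301 counts with Control-ASO, a ratio of 0.685 (0.567 to 0.826) and a log2 ratio of -0.49, short of 1.5-fold. Hsf2, a related factor outside the chosen genes, had 116 counts with AclyE14-ASO and 196 counts with Control-ASO, a ratio of 0.660 (0.520 to 0.834), and a log2 ratio of -0.49 as well. Transcript levels do not measure HSF1 activity, which is known to be set mainly by trimer formation and modification of the protein.

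**Figure D2:**
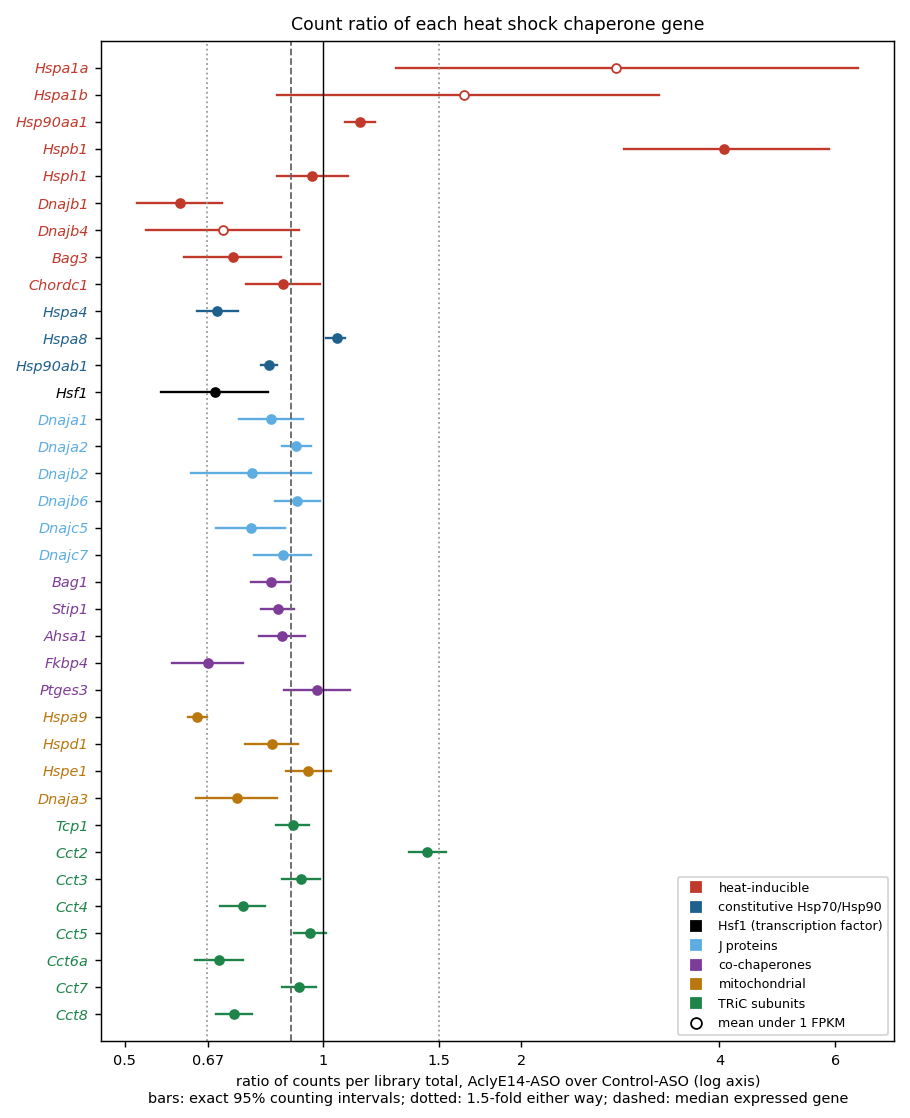
Ratio of counts per library total, AclyE14-ASO over Control-ASO (log axis), for each chaperone gene with its exact 95% counting interval, where open circles mark genes with a mean under 1 FPKM. Most members lie between the dotted 1.5-fold lines and near the dashed median gene at 0.896, with Hspb1 at 4.06, Cct2 at 1.44, Hspa9 at 0.645 and Dnajb1 at 0.607.

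The 3 constitutive Hsp70 and Hsp90 genes, which took 0.132% of the AclyE14-ASO counts and 0.147% of the Control-ASO counts, stayed within 1.5-fold. Hspa8, the constitutive cytosolic Hsp70 (Hsc70), was at 62.7 FPKM in the AclyE14-ASO library and 59.9 FPKM in the Control-ASO library, a ratio of 1.05 (1.01 to 1.08). Hsp90ab1, the constitutive Hsp90, was at 112 FPKM with AclyE14-ASO and 136 FPKM with Control-ASO, a ratio of 0.828 (0.805 to 0.852). The paired Hsp90 genes thus lay on opposite sides of 1, with Hsp90aa1 above it. Hspa4, an Hsp110-type exchange factor of Hsp70, was at 15.7 FPKM with AclyE14-ASO and 22.7 FPKM with Control-ASO, the lowest of the group with a ratio of 0.691 (0.643 to 0.743). The median log2 ratio of these 3 genes was -0.27.

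None of the 6 other J proteins was called. Their log2 ratios ran from -0.27 for Dnajc5, which encodes the vesicle-bound cysteine string protein, to -0.12 for Dnajb6, a suppressor of protein aggregation, with a median of -0.19. Dnaja2, the most abundant, was at 79.2 FPKM in the AclyE14-ASO library and 86.9 FPKM in the Control-ASO library. Dnaja1, its paralog, was at 3.15 FPKM with AclyE14-ASO and 3.77 FPKM with Control-ASO. Dnajb2, whose protein passes ubiquitylated clients on for degradation, had 156 counts with AclyE14-ASO and 223 counts with Control-ASO, and Dnajc7, whose protein recycles clients between Hsp90 and Hsp70, had 694 counts with AclyE14-ASO and 890 with Control-ASO. In the list of 15 further J-protein genes, 14 were measured and none was called either way on FPKM + 1, with a median of -0.23. By counts, and with a pseudocount of 0.1, 3 were lower: Dnajc11, Dnajc21 and Hscb, with count ratios of 0.605, 0.567 and 0.629. Those settings placed 14.4% and 13.7% of expressed genes lower. Dnajc15, its most abundant gene, was at 52.2 FPKM with AclyE14-ASO and 59.8 FPKM with Control-ASO.

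Of the 5 co-chaperones of Hsp70 and Hsp90, none was called and the median log2 ratio was -0.23. Fkbp4, an immunophilin of steroid receptor complexes with Hsp90, was the lowest at 8.44 FPKM in the AclyE14-ASO library and 12.6 FPKM in the Control-ASO library. Its ratio of 0.669 (0.591 to 0.756) lay just inside the 1.5-fold limit. Stip1, the adaptor that links Hsp70 to Hsp90, was at 73.1 FPKM with AclyE14-ASO and 85.6 FPKM with Control-ASO, a ratio of 0.854 (0.805 to 0.905). Ahsa1, the activator of the Hsp90 ATPase, was at 63.6 FPKM with AclyE14-ASO and 73.4 FPKM with Control-ASO. Bag1, an exchange factor of Hsp70, was at 38.0 FPKM with AclyE14-ASO and 45.6 FPKM with Control-ASO. Ptges3, the Hsp90 co-chaperone p23, was at 12.4 FPKM with AclyE14-ASO and 12.7 FPKM with Control-ASO, and its interval of 0.872 to 1.10 included no difference. Among 20 further co-chaperones 18 were measured, none was called on FPKM + 1 and the median was -0.23. By counts, and with a pseudocount of 0.1, Bag4 and Bag5 were lower, against 14.4% and 13.7% of expressed genes. Their count ratios were 0.618 and 0.563. Cdc37, which brings kinases to Hsp90 and was the most abundant of them, was at 62.8 FPKM with AclyE14-ASO and 77.9 FPKM with Control-ASO.

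The 4 mitochondrial members had a median of -0.31, and Hspa9 was the member past 1.5-fold. Hspa9 encodes mortalin, the Hsp70 of the mitochondrial matrix that pulls proteins through the import channel. It was at 93.3 FPKM in the AclyE14-ASO library and 145 FPKM in the Control-ASO library. With 5958 counts with AclyE14-ASO and 10299 counts with Control-ASO its ratio was 0.645, and the interval of 0.625 to 0.666 lay just past the 1.5-fold limit of 0.667. Dnaja3, the J protein of the matrix, was at 5.62 FPKM with AclyE14-ASO and 7.60 FPKM with Control-ASO, a ratio of 0.740 (0.642 to 0.851). It shares exon sequence on its own strand with Vasn, which had 291 counts with AclyE14-ASO and 289 counts with Control-ASO, and the summed counts had a ratio of 0.879 (0.791 to 0.978).

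The chaperonin pair of the matrix differed less. Hspd1 (Hsp60) was at 22.6 FPKM in the AclyE14-ASO library and 27.0 FPKM in the Control-ASO library, a ratio of 0.837 (0.762 to 0.918). Hspe1 (Hsp10), whose RefSeq start follows the stretch shown above, was at 52.5 FPKM with AclyE14-ASO and 55.2 FPKM with Control-ASO. Its interval of 0.879 to 1.03 included no difference. The intervals of Hspd1 and Hspe1 overlap each other, and their annotated exons overlap on opposite strands. Summed with the pseudogene Hspd1-ps3, Hspd1 had a ratio of 0.848 (0.780 to 0.922). Without Hspa9 the summed counts of the mitochondrial group had a ratio of 0.873 (0.827 to 0.923), close to the median gene's 0.896.

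Some further genes of mitochondrial protein handling were lower too. Of 10 listed chaperones and proteases of mitochondria all were measured. By 1.5-fold 3 were lower and 0 were higher, against 8.48% and 7.03% of expressed genes. The list median was -0.18, near the -0.13 of the median gene. Under TMM, median-of-ratios and centred scaling 2 stayed lower, Afg3l2 and Grpel2, against 5.84%, 5.81% and 4.69% of expressed genes. Centring alone placed Htra2 higher, against 9.83% of expressed genes. Grpel2, a nucleotide exchange factor of Hspa9, had 219 counts in the AclyE14-ASO library and 550 in the Control-ASO library, a ratio of 0.444 (0.378 to 0.520). Its paralog Grpel1 was at 27.1 FPKM with AclyE14-ASO and 30.6 FPKM with Control-ASO. Afg3l2, a subunit of a protease of the inner membrane, was at 9.25 FPKM with AclyE14-ASO and 19.9 FPKM with Control-ASO, a ratio of 0.465 (0.410 to 0.526). Lonp1, the matrix protease Lon and by mean level the most abundant of the list, was at 24.3 FPKM with AclyE14-ASO and 38.9 FPKM with Control-ASO, a ratio of 0.624 (0.575 to 0.677). Trap1, the mitochondrial Hsp90, was at 11.7 FPKM with AclyE14-ASO and 10.2 FPKM with Control-ASO. Of 13 transcripts of the mitochondrial genome 12 were measured, with a median log2 ratio of -0.35. Of these 11 lay below 0, against 64.9% of expressed genes, and 1 was higher at 1.11, against 7.03%. All 13 transcripts had a summed ratio of 0.791 (0.786 to 0.797). Their relation to Hspa9 was not tested.

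Of the 8 subunits of TRiC none was called and 7 had a log2 ratio below 0, against 64.9% of expressed genes. Under TMM, median-of-ratios factors and centring Cct2 was higher, against 8.67%, 8.71% and 9.83% of expressed genes. The group's median was then -0.03, -0.03 and 0.00. Cct2 was at 88.5 FPKM in the AclyE14-ASO library and 61.3 FPKM in the Control-ASO library, with 2214 counts with AclyE14-ASO and 1710 counts with Control-ASO and a ratio of 1.44 (1.35 to 1.54). Its log2 ratio of 0.52 was short of 1.5-fold. The other 7 had log2 ratios from -0.49 to -0.06, and their summed ratio was 0.855 (0.835 to 0.876). Cct6a was at 14.5 FPKM with AclyE14-ASO and 20.8 FPKM with Control-ASO, a ratio of 0.696 (0.640 to 0.757). Cct8 had a ratio of 0.734 (0.689 to 0.782) and Cct4 one of 0.756 (0.699 to 0.816). Tcp1, Cct3, Cct5 and Cct7 had ratios of 0.900, 0.926, 0.955 and 0.921. Cct6a overlaps Psph on the other strand, which had 157 counts with AclyE14-ASO and 325 counts with Control-ASO. The sources used here do not say whether counting used strand. The median log2 ratio over all 8 was -0.13, that of the median gene.

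Prefoldin, which delivers actin and tubulin to TRiC, was described by a list of its own. Of 10 prefoldin and phosducin-like genes all were measured, with a median of -0.17. Of these 1 was lower and none was higher, against 8.48% and 7.03% of expressed genes. Their log2 ratios ran from -0.59 to 0.53. Pfdn4 had 153 counts in the AclyE14-ASO library and 282 in the Control-ASO library, a ratio of 0.605 (0.494 to 0.739). Pfdn5, the most abundant subunit, was at 74.0 FPKM with AclyE14-ASO and 51.1 FPKM with Control-ASO, with a log2 ratio of 0.53.

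**Figure D3:**
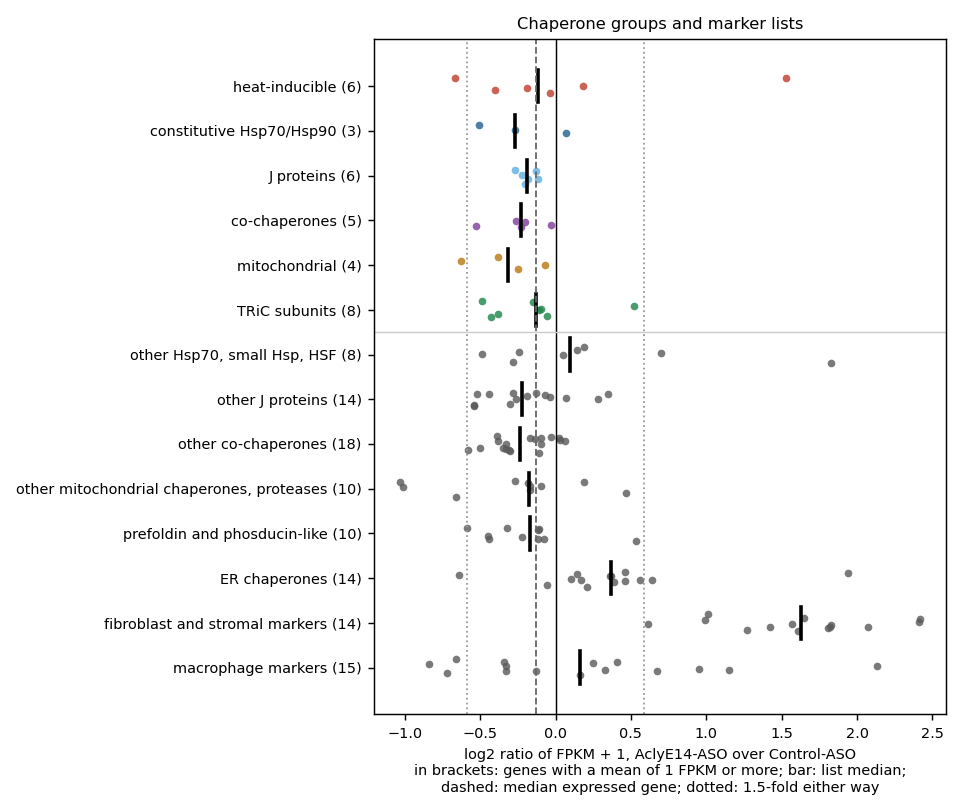
Each dot is the log2 ratio (FPKM + 1, AclyE14-ASO over Control-ASO) of 1 gene that reached a mean of 1 FPKM, by role group of the members (coloured, above the line) and by other chaperone and marker list (grey), with black bars for list medians. The 6 role groups shown, which leave out the single gene Hsf1, centre between -0.31 and -0.12 around the dashed median gene at -0.13. The listed ER chaperones centre at 0.36 and the measured stromal markers at 1.63, or 1.49 without the level filter.

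In the list of 15 other Hsp70, small Hsp and HSF genes 14 were found and 8 were measured, with a median of 0.10. Of these 2 were higher and 0 lower, against 7.03% and 8.48% of expressed genes. By counts, and with a pseudocount of 0.1, Hsf2 was lower, against 14.4% and 13.7% of expressed genes. With a pseudocount of 5, and at 2-fold, Hspb8 was not called. Cryab, the alphaB-crystallin known from lens and muscle, was at 40.0 FPKM in the AclyE14-ASO library and 10.5 FPKM in the Control-ASO library, a ratio of 3.80 (3.21 to 4.52). Hspb8, a partner of Bag3, had 71 counts with AclyE14-ASO and 35 counts with Control-ASO, a ratio of 2.26 (1.49 to 3.49), and reached 1 FPKM in the AclyE14-ASO library only. Hspb6 and Hspb2, named after their values were seen, were below the level filter: Hspb6 had 36 counts with AclyE14-ASO and 15 counts with Control-ASO, and Hspb2 had 12 counts with AclyE14-ASO and 0 counts with Control-ASO. Hspb11, listed under the same family name and measured, had 61 counts with AclyE14-ASO and 55 counts with Control-ASO, and its ratio of 1.24 had an interval of 0.845 to 1.81 that included no difference. Hsbp1, a small inhibitor of HSF1 and the most abundant gene of that list, was at 136 FPKM with AclyE14-ASO and 131 FPKM with Control-ASO. Stromal markers were higher in the same library, with a median of 1.63 for those measured and 1.49 without the level filter. The part of stromal cells in the levels of Cryab and Hspb8 was not tested.

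The listed chaperones of the endoplasmic reticulum had a median on the other side of the median gene. Of 14 listed all were measured, with a median of 0.36. Of these 2 were higher and 1 lower, against 7.03% and 8.48% of expressed genes. The counting interval lay above 1 for 11 of the 14, against 21.7% of expressed genes. That comparison depends on abundance, because 13 of the 14 had a mean of at least 5 FPKM. Under TMM and median-of-ratios factors 3 were higher and 0 lower, with Pdia4 added. Of expressed genes 8.67% and 8.71% were then higher and 5.84% and 5.81% lower. With centring 5 were higher and 0 lower, with Dnajc10 and P4hb added too, against 9.83% and 4.69% of expressed genes. Hspa5 (BiP), the Hsp70 of that compartment, was at 122 FPKM in the AclyE14-ASO library and 78.1 FPKM in the Control-ASO library, against ratios of 1.05 for Hspa8 in the cytosol and 0.645 for Hspa9 in mitochondria. The ratio of Hspa5 was 1.57 (1.52 to 1.61), so the counting intervals of the 3 compartments' main Hsp70 genes were separate. Serpinh1, the collagen chaperone, was at 47.9 FPKM with AclyE14-ASO and 11.7 FPKM with Control-ASO, and its relation to the stromal markers, higher in the same library, was not tested. Dnajb9, a J protein of that compartment, was at 15.6 FPKM with AclyE14-ASO and 24.9 FPKM with Control-ASO. Calr, a lectin chaperone and the most abundant of the list, was at 139 FPKM with AclyE14-ASO and 124 FPKM with Control-ASO. The list was chosen by hand, and other J-protein genes of that compartment were placed among the further J proteins. Of those, Dnajc3, Dnajc1 and Dnajb12 had log2 ratios of -0.26, -0.30 and -0.28, and Dnajb14 had one of 0.07.

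The order of the members by level depended on the gene length used. The deposited FPKM and counts imply a length for each gene that was over 1.5 times its longest coding transcript in GENCODE M21 for 24 of the 36 members and ranged from 0.381 times for Chordc1 to 4.86 times for Dnajb4. In deposited FPKM the leading members were Hsp90ab1 and Hspa9, and Hspa8 ranked 7 in both libraries. Recomputed per length of the longest coding transcript, or processed transcript for Cct6a, Hsp90ab1 was at 258 FPKM in the AclyE14-ASO library and 312 FPKM in the Control-ASO library. Hspa8 was then at 238 FPKM with AclyE14-ASO and 227 FPKM with Control-ASO. Hspa9 was at 153 FPKM with AclyE14-ASO and 238 FPKM with Control-ASO, so that it ranked below Hspa8 in the AclyE14-ASO library and above it in the Control-ASO library. On that scale the TRiC subunits ran from 29.1 to 105 FPKM in the AclyE14-ASO library and from 41.8 to 109 FPKM in the Control-ASO library, and Cct5 was highest in both. The count ratios do not depend on this length, but the level filter and the log2 ratios of FPKM + 1 do. Dnajb4, below the filter in deposited FPKM, was at 2.96 FPKM with AclyE14-ASO and 4.20 FPKM with Control-ASO per transcript length.

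The scaling between libraries decided which members passed 1.5-fold near the limit. Factors from the trimmed mean of M values (TMM) moved the median gene to -0.05, and centring on genes of 5 FPKM or more moved it to 0.00. Under TMM, the median-of-ratios factors and centring, Hspb1 and Cct2 were higher and 0 members were lower. Of expressed genes 8.67%, 8.71% and 9.83% were then higher and 5.84%, 5.81% and 4.69% lower. Hspa9 was at -0.53, -0.52 and -0.50 under these scalings. Cct2 was then at 0.62, 0.62 and 0.65. Relative to the median gene Hspb1 was thus higher under each of these scalings, while Hspa9, Dnajb1 and Cct2 lay on either side of the limit. Among all expressed genes called, 45.3% were higher without such scaling, 59.7% with TMM, 60.0% with median-of-ratios factors and 67.7% with centring. In the list of mitochondrial chaperones and proteases, Afg3l2 and Grpel2 were lower under all 3 scalings and Lonp1 was not. Pfdn4 and Dnajb9 were not called under them either, and Pfdn5 was higher.

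**Figure D4:**
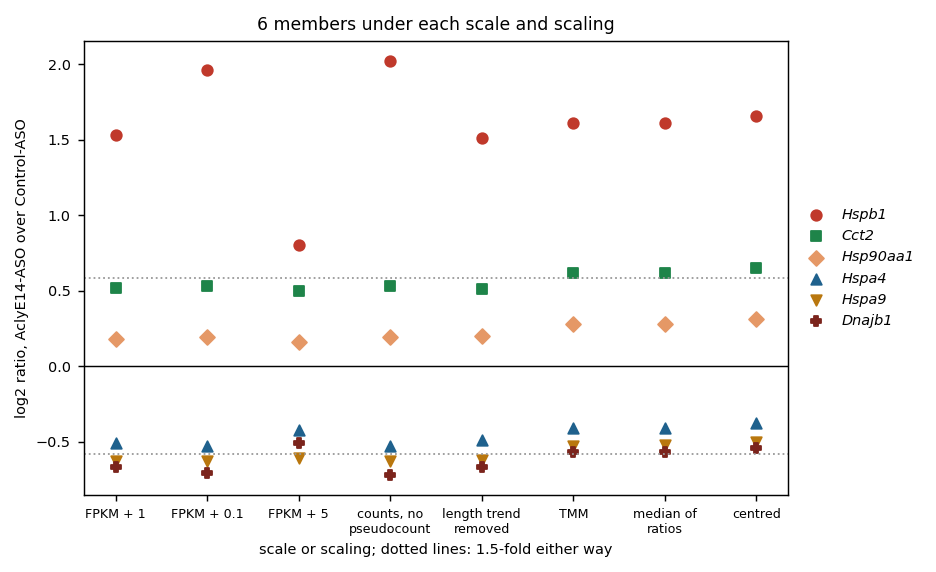
Log2 ratio of 6 members, AclyE14-ASO over Control-ASO, under each pseudocount, quantity and scaling on the horizontal axis, with dotted lines at 1.5-fold. Hspb1 stays above the upper line throughout (0.80 with a pseudocount of 5), while under TMM, median-of-ratios factors and centring Cct2 lies above that line and Hspa9 and Dnajb1 lie inside the lower one, as Dnajb1 also does with a pseudocount of 5.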

How the data were processed

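RNA was measured in 2 libraries, 1 per group. Per the file headers, the authors deposited raw gene counts and FPKM values. HISAT2, StringTie 1.3.0, edgeR and mm10 are named in the submitters' processing notes without a role. The sources used here do not name the counter or say how strand and shared reads were handled. Over the 10077 genes whose counts exceeded 20 in each library, FPKM divided by counts was 1.1148 to 1.1149 times as high with AclyE14-ASO as with Control-ASO, and the total counts had an inverse ratio of 1.1148, so the deposited FPKM hold no other scaling.

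Symbols came from GENCODE M21 (GRCm38, also called mm10) for 34267 genes. From the deposited values, log2 ratios of FPKM + 1 were computed where the mean reached 1 FPKM, and a gene was called at 1.5-fold. The pseudocount understates changes of low genes. Count ratios per library total carry exact 95% conditional binomial intervals, which treat reads as independent although no molecular identifiers mark them. No test across genes was run. Members and lists were chosen with earlier results of these data known. Members past 1.5-fold, the ends and the most abundant gene of each role group, and up to 2 called genes at each end of the other lists were to be named; others were added. Alternatives were pseudocounts of 0.1 and 5, TMM, median-of-ratios factors, centring, counts, no filter or 5 FPKM, a 2-fold limit and removal of a length trend. A GC trend, sums with pseudogenes and transcript lengths were chosen after seeing the data. Simulated counts were used to test the calculations. Tools were Python 3.11.15, NumPy 2.4.6, pandas 2.3.3, SciPy 1.17.1, statsmodels 0.14.6, R 4.3.3 and edgeR 4.0.16 (TMM only).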

Additional observations from a re-analysis of the deposited data

How the results depend on the processing

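Hspb1 was higher under all alternatives that kept it (a mean of at least 5 FPKM left 0 members higher). With TMM, median-of-ratios factors and centring, 2 members were higher and 0 lower. Of expressed genes 8.67%, 8.71% and 9.83% were then higher and 5.84%, 5.81% and 4.69% lower. With a pseudocount of 5, 1 member was lower, and at 2-fold 0 were. Among expressed genes, the higher and lower counts were 287 and 258 with a pseudocount of 5, 298 and 455 at 5 FPKM or more, and 275 and 134 at 2-fold. The lower count was 1184 with a pseudocount of 0.1, 1249 by counts and 406 when centred. Centring moved the median of the members to -0.07, of the constitutive Hsp70 and Hsp90 genes to -0.14, of the co-chaperones to -0.10, of the mitochondrial group to -0.18 and of TRiC to 0.00. TMM and median-of-ratios factors gave -0.17 for the constitutive group and -0.03 for TRiC. The inducible median turned to 0.01 with centring. Each of 355 recomputed member values was compared with its main value. For 311 the shift was at most the distance from middle to end of the log2 counting interval, and for 44 it was more. Among called values 0 changed sign. No paired analysis was possible because each group had 1 library. For the same reason no library could be left out.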
